A study of Mus musculus with 11 samples.

Results

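The milk protein and secretion genes are 10 genes whose products make up or package milk: the caseins *Csn1s1*, *Csn1s2a*, *Csn1s2b*, *Csn2* and *Csn3*, the whey proteins *Wap* and *Lalba*, the mucin-like *Glycam1*, and *Btn1a1* and *Xdh* of the milk fat globule. They were chosen by gene name, and all 10 were found among the 26283 genes of the deposited tables. Bulk RNA was sequenced from mammary tumors of C57BL/6 mice at 18 weeks of age, with 1 batch given for all 11 libraries. The PyMT *Pcbp1*–/– tumors (n = 6) came from mice carrying MMTV-PyMT, MMTV-Cre and the floxed *Pcbp1*(fl/fl) alleles, and the PyMT *Pcbp1*+/+ tumors (n = 5) from mice with MMTV-PyMT, MMTV-Cre and *Pcbp1*(wt/wt). PyMT, the polyomavirus middle T antigen, is the oncogene that drives these tumors. Both the oncogene and Cre were expressed from the MMTV promoter, so the deletion was directed to mammary epithelial cells, and these bulk data do not measure *Pcbp1* by cell type. Parity and the stage of lactation are not given in the sources used here. Estimated counts summed to between 10543189 and 14092192 per tumor, and a level of 3 counts, the limit that a count of 0 allows, was between 0.213 and 0.285 CPM (counts scaled to the same total in each tumor), for counting error only.

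Milk is made by the secretory alveolar cells of the mammary gland, which arise from luminal progenitors during pregnancy. Prolactin acts through its receptor, JAK2 and STAT5 to switch on casein and whey protein genes, together with glucocorticoids and the transcription factor ELF5. Caseins assemble into micelles that leave the cell by exocytosis, whereas milk fat is wrapped in plasma membrane in a step that needs butyrophilin (*Btn1a1*) and xanthine dehydrogenase (*Xdh*). The MMTV promoter is itself active in the lactogenic epithelium. The comparison of genotypes asked whether milk genes differed in level between tumors with and without PCBP1, a protein that binds cytosine-rich RNA and DNA.

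The targeted gene and the tissue were checked first. *Pcbp1* was between 15.4 and 33.6 CPM in PyMT *Pcbp1*–/– tumors, with a median of 20.9 CPM, and between 220 and 271 CPM in PyMT *Pcbp1*+/+ tumors, so each library matched its label. All 12 luminal epithelial markers were expressed above 1 CPM on average, and their sum was 2094 ± 413 CPM (SD over n = 6) in PyMT *Pcbp1*–/– and 2291 ± 397 CPM (SD over n = 5) in PyMT *Pcbp1*+/+ tumors. The most abundant of them over the 11 tumors together, though not in PyMT *Pcbp1*–/– tumors alone, was *Kit*, a receptor of luminal progenitors, at 296 ± 74.2 CPM (SD over n = 6) and 425 ± 151 CPM (SD over n = 5). In edgeR, DESeq2 and limma-voom with sample quality weights, 0 of the 12 luminal markers passed an adjusted p under 0.05 between genotypes, and 1 passed an unadjusted p under 0.05 in edgeR. Over all genes these shares, lower and higher, were 1.66% and 0.608% in edgeR, 3.8% and 2.53% in DESeq2, 6.19% and 5.03% in limma-voom, and 10.5% and 8.19% at the unadjusted p in edgeR.

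Of the 10 milk genes, 7 passed edgeR's filter on low counts, and *Csn1s2a*, *Csn1s2b* and *Glycam1* did not. At an adjusted p under 0.05 (edgeR's quasi-likelihood test, Benjamini-Hochberg adjustment over 19232 genes), 0 of the 7 were lower in PyMT *Pcbp1*–/– tumors, where 1.66% of all genes tested were, and 0 were higher, where 0.608% were. At an unadjusted p under 0.05 in edgeR, 1 of the 7 was lower, *Csn3*, against 10.5% of all genes tested, and 0 were higher, against 8.19%. DESeq2 also called 0 of the 7, against 3.8% lower and 2.53% higher over all those tested. Limma-voom with sample quality weights called 2 lower, *Csn3* and *Lalba*, against 6.19% lower and 5.03% higher over all genes. Of the calls over all genes, 73.2% were lower in edgeR, 60.03% in DESeq2 and 55.1% in limma-voom with sample quality weights. The median log2 fold change of the 7 was -0.06, with 4 estimates below 0 and 3 above, beside -0.00012 over all genes tested. The CPM ranges of the genotypes overlapped for each of the 10 genes, whereas every PyMT *Pcbp1*–/– tumor lay below every PyMT *Pcbp1*+/+ tumor for 2.02% of the genes tested and above for 1.27%.

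**Figure D1:**
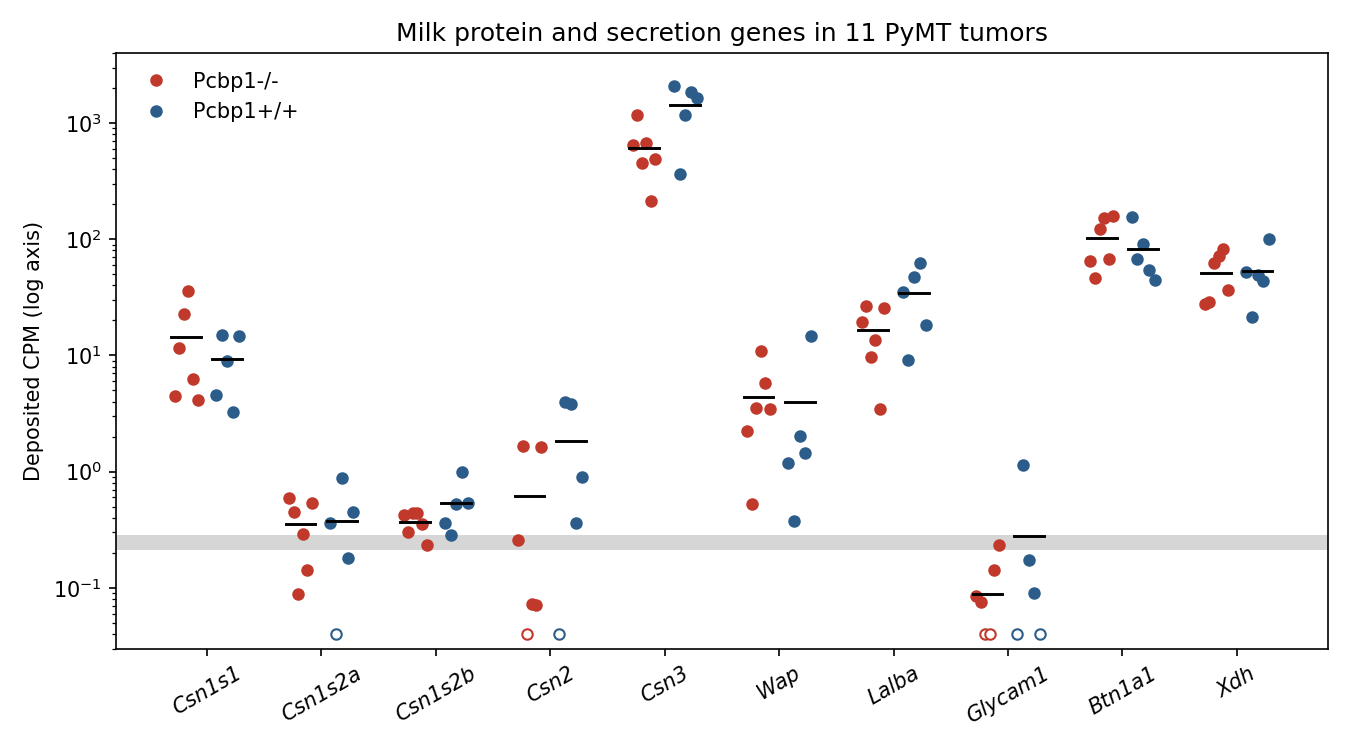
Deposited CPM (log axis) of the 10 milk genes in each of 6 PyMT *Pcbp1*–/– tumors (red) and 5 PyMT *Pcbp1*+/+ tumors (blue), with a black bar at each group's mean, open circles at the bottom for values of 0, and a grey band for 3 counts (0.213 to 0.285 CPM). The red and blue points overlapped for every gene, and *Csn2*, *Csn1s2a*, *Csn1s2b* and *Glycam1* lay near or under the band in most tumors.

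The caseins differed widely in level. *Csn3* encodes kappa-casein, which caps the surface of the micelle and keeps it in solution. It (ENSMUSG00000001622.15, chromosome 5 of GRCm38, 87925579 to 87932665, plus strand) ranged from 215 to 1167 CPM in PyMT *Pcbp1*–/– tumors, with a median of 571 CPM. In PyMT *Pcbp1*+/+ replicates 1 to 5 *Csn3* was at 2085, 361, 1169, 1859 and 1637 CPM. PyMT *Pcbp1*+/+ replicates 1, 3, 4 and 5 thus lay above all PyMT *Pcbp1*–/– tumors, replicate 3 by a narrow margin over PyMT *Pcbp1*–/– replicate 2, while replicate 2 was lower than 5 of the 6. The mean was 609 ± 319 CPM (SD over n = 6) against 1422 ± 683 CPM (SD over n = 5), and edgeR gave a log2 fold change of -1.22 (SE, the standard error, 0.43, 95% interval -2.15 to -0.30, unadjusted p = 0.0136, adjusted p = 0.150). Without PyMT *Pcbp1*+/+ replicate 2 it was -1.47 with an adjusted p of 0.0446 in edgeR, and limma-voom with sample quality weights gave -1.47 with an adjusted p of 0.0195, while over the other alternatives the adjusted p ranged from 0.0503 to 0.318. In bulk tumors, fewer cells of a type and less RNA per cell cannot be told apart, and this holds for each gene described here.

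*Csn1s1* encodes alpha-S1-casein, which takes part in moving the caseins out of the endoplasmic reticulum. It (ENSMUSG00000070702.9, chromosome 5, 87666208 to 87682578, plus strand) ranged from 4.17 to 36.1 CPM in PyMT *Pcbp1*–/– tumors, with a median of 8.97 CPM. *Csn1s1* in PyMT *Pcbp1*+/+ replicates 1 to 5 was at 4.57, 15.1, 9.02, 3.28 and 14.7 CPM. The highest values were in PyMT *Pcbp1*–/– replicates 4 and 3, and the other tumors of both genotypes were interleaved. edgeR gave *Csn1s1* a log2 fold change of 0.59 (SE 0.61, 95% interval -0.74 to 1.92, adjusted p = 0.644), and over the alternatives it ran from 0.05 without PyMT *Pcbp1*–/– replicate 4 to 1.25 in limma-voom with sample quality weights (adjusted p = 0.261).

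*Csn2* encodes beta-casein, a main protein of mouse milk. It (ENSMUSG00000063157.9, chromosome 5, 87692624 to 87699630, minus strand) was between 0 and 1.65 CPM in PyMT *Pcbp1*–/– tumors, with a median of 0.165 CPM. PyMT *Pcbp1*+/+ replicates 1 to 5 had *Csn2* at 0, 3.98, 3.86, 0.364 and 0.893 CPM. These values stand for 0 to 44 rounded counts, so *Csn2* was close to the limit of detection in most tumors, and 4 tumors, PyMT *Pcbp1*–/– replicates 2 and 6 and PyMT *Pcbp1*+/+ replicates 2 and 3, held most of its counts. For *Csn2* the log2 fold change from edgeR was -1.58 with a 95% interval from -3.76 to 0.60 (SE 1.00, adjusted p = 0.424). The estimate for *Csn2* was from -0.64 in limma with a pseudocount of 1 to -2.15 in limma-voom with sample quality weights, and 18 of the 22 alternatives tested this gene.

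The alpha-S2-caseins were at or near the limit that a count of 0 allows. *Csn1s2a* (ENSMUSG00000061937.7) had at most 10 counts in a tumor, with 0.352 ± 0.211 CPM (SD over n = 6) in PyMT *Pcbp1*–/– and 0.374 ± 0.329 CPM (SD over n = 5) in PyMT *Pcbp1*+/+ tumors. *Csn1s2b* (ENSMUSG00000061388.11) had between 3 and 11 counts, with 0.366 ± 0.0868 CPM (SD over n = 6) and 0.543 ± 0.278 CPM (SD over n = 5). A difference between genotypes was not detectable at this depth for either gene.

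The whey proteins were both detected in all 11 tumors. *Lalba* encodes alpha-lactalbumin, the subunit that turns beta-1,4-galactosyltransferase into lactose synthase. It (ENSMUSG00000022991.5, chromosome 15, 98480400 to 98482721, minus strand) ranged from 3.48 to 26.8 CPM in PyMT *Pcbp1*–/– tumors, with a median of 16.4 CPM. *Lalba* in PyMT *Pcbp1*+/+ replicates 1 to 5 was at 35.4, 9.20, 47.0, 62.6 and 18.1 CPM. PyMT *Pcbp1*+/+ replicates 1, 3 and 4 lay above every PyMT *Pcbp1*–/– tumor and replicates 2 and 5 within their range. edgeR gave *Lalba* a log2 fold change of -1.07 (SE 0.51, 95% interval -2.17 to 0.03, adjusted p = 0.281). Limma-voom with sample quality weights gave *Lalba* -1.69 with an adjusted p of 0.0337, and the adjusted p over the other alternatives ranged from 0.144 to 0.518.

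*Wap* encodes whey acidic protein, a rodent milk protein that is widely used as a marker of late pregnancy and lactation. It (ENSMUSG00000000381.10, chromosome 11, 6635482 to 6638637, minus strand) ranged from 0.525 to 10.9 CPM in PyMT *Pcbp1*–/– tumors, with a median of 3.52 CPM. In PyMT *Pcbp1*+/+ replicates 1 to 5 *Wap* was at 1.19, 0.379, 2.02, 1.46 and 14.8 CPM. PyMT *Pcbp1*+/+ replicate 5 held the highest level of all tumors, and the other PyMT *Pcbp1*+/+ tumors lay below 5 of the 6 PyMT *Pcbp1*–/– tumors. For *Wap* the log2 fold change from edgeR was 0.11 (SE 0.84, 95% interval -1.72 to 1.93, adjusted p = 0.959), and without PyMT *Pcbp1*+/+ replicate 5 it was 1.81 with an adjusted p of 0.181 in edgeR. The sign of this estimate turned with other single tumors left out, from -0.40 without PyMT *Pcbp1*–/– replicate 4 upwards. Between its lowest and highest tumor *Wap* varied 39.1-fold, with 4 rounded counts in its lowest tumor, compared with 18.001-fold for *Lalba*, 11.0-fold for *Csn1s1* and 9.71-fold for *Csn3*.

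*Glycam1* encodes a mucin-like glycoprotein that is secreted into milk and is also made by high endothelial venules of lymph nodes. It (ENSMUSG00000022491.5, chromosome 15) had 22 rounded counts in all 11 tumors, 12 of them in PyMT *Pcbp1*+/+ replicate 2, and 0 in 4 tumors. Its level was 0.089 ± 0.0886 CPM (SD over n = 6) in PyMT *Pcbp1*–/– and 0.281 ± 0.485 CPM (SD over n = 5) in PyMT *Pcbp1*+/+ tumors, so that PyMT *Pcbp1*+/+ replicate 2, at 1.14 CPM, was the only tumor above 3 counts. Of 11 listed markers of high endothelium and lymph node, 5 were matched by name in the table. Their most abundant gene over the 11 tumors together, *Ccl21a*, was at 0.379 CPM in that tumor, where *Cr2* was at 0.569 CPM. The summed level of those 5 markers was 1.42 CPM there and between 0.923 and 5.49 CPM in all tumors.

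The genes of the milk fat globule differed between genotypes by less than the spread between tumors. *Btn1a1* encodes butyrophilin, a membrane protein that anchors the globule's coat. It (ENSMUSG00000000706.16, chromosome 13, 23456992 to 23465901, minus strand) ranged from 46.7 to 160 CPM in PyMT *Pcbp1*–/– tumors, with a median of 94.6 CPM. PyMT *Pcbp1*+/+ replicates 1 to 5 had *Btn1a1* at 157, 68.1, 91.2, 54.9 and 44.7 CPM. High and low tumors occurred in both genotypes, with PyMT *Pcbp1*–/– replicates 6 and 4 and PyMT *Pcbp1*+/+ replicate 1 at the top. edgeR gave *Btn1a1* a log2 fold change of 0.32 (SE 0.37, 95% interval -0.50 to 1.13, adjusted p = 0.689).

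*Xdh* encodes xanthine dehydrogenase, an enzyme of purine breakdown that also binds butyrophilin on the globule and is expressed in many epithelia. It (ENSMUSG00000024066.8, chromosome 17, 73883908 to 73950182, minus strand) ranged from 27.5 to 82.4 CPM in PyMT *Pcbp1*–/– tumors, with a median of 49.9 CPM. *Xdh* in PyMT *Pcbp1*+/+ replicates 1 to 5 was at 52.1, 21.3, 48.8, 43.5 and 101 CPM. PyMT *Pcbp1*+/+ replicates 5 and 2 held the highest and the lowest level of all tumors. For *Xdh* the log2 fold change from edgeR was -0.06 (SE 0.40, 95% interval -0.93 to 0.80, adjusted p = 0.950).

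**Figure D2:**
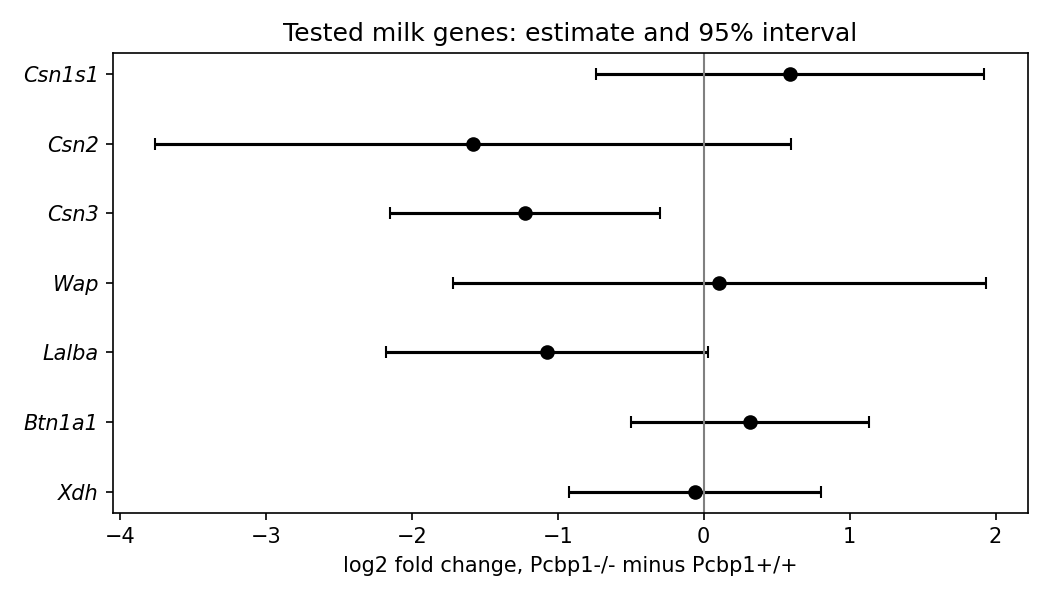
Log2 fold change (PyMT *Pcbp1*–/– minus PyMT *Pcbp1*+/+, horizontal axis) of the 7 milk genes tested, as points with 95% intervals from the edgeR fit. The interval of *Csn3* lay below 0, from -2.15 to -0.30, and those of the other 6 genes crossed 0.

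Levels were compared between genes after division by transcript length. *Csn3* led in both genotypes, at 473 CPM per kilobase in PyMT *Pcbp1*–/– and 1106 CPM per kilobase in PyMT *Pcbp1*+/+ tumors. *Btn1a1* and *Lalba* followed, at 29.6 and 21.3 CPM per kilobase in PyMT *Pcbp1*–/– and 24.1 and 44.7 CPM per kilobase in PyMT *Pcbp1*+/+ tumors, a difference within the spread between tumors. *Csn1s1*, *Xdh* and *Wap* formed a middle group between 6.59 and 10.1 CPM per kilobase, in which neighbours differed by less than their spread between tumors. *Csn2* was at 0.461 and 1.37 CPM per kilobase, and the remaining 3 genes were each below 1 CPM per kilobase. Among the caseins, then, the kappa-casein transcript was abundant while those of beta-casein and the alpha-S2-caseins were low, close to the limit of detection in most tumors.

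Together the 10 genes took a small share of the counts. It was between 0.0381% and 0.128% in PyMT *Pcbp1*–/– tumors, with a median of 0.0747%, and 0.234%, 0.0480%, 0.137%, 0.203% and 0.183% in PyMT *Pcbp1*+/+ replicates 1 to 5. *Csn3* alone made up from 56.4% of these counts in PyMT *Pcbp1*–/– replicate 5 to 91.7% in PyMT *Pcbp1*+/+ replicate 4. Without *Csn3* the share was 0.0190% ± 0.0067 (SD over n = 6) in PyMT *Pcbp1*–/– and 0.0187% ± 0.0048 (SD over n = 5) in PyMT *Pcbp1*+/+ tumors. The summed shares of the genotypes overlapped, and without *Csn3* their means differed by less than the spread between tumors.

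The milk genes did not follow each other as 1 block across tumors. Over the 21 pairs of tested genes, the median Pearson correlation of log2 CPM was 0.00949 (n = 11 tumors), 10 of the 21 were negative, and 2 exceeded 0.5. *Csn3* and *Lalba* had r = 0.844 and Spearman's rho = 0.855 over 11 tumors, and r = 0.749 without the 2 tumors farthest from the median of *Csn3*. *Wap* and *Xdh* had r = 0.861 and rho = 0.809 over 11 tumors, and r = 0.768 without the 2 tumors farthest from the median of *Wap*. Both pairs also had a positive r within each genotype, at 0.855 and 0.749 for *Csn3* with *Lalba* and at 0.805 and 0.958 for *Wap* with *Xdh* (n = 6 PyMT *Pcbp1*–/– and n = 5 PyMT *Pcbp1*+/+ tumors). Over all 11 tumors, the highest r of any other pair was 0.336, between *Csn1s1* and *Wap*. Within a genotype other pairs went higher. *Csn1s1* with *Xdh* was positive in both, with r = 0.507 in PyMT *Pcbp1*–/– and 0.108 in PyMT *Pcbp1*+/+ tumors. The others had opposite signs in the 2 genotypes. *Csn3* with *Xdh* had r = -0.689 in PyMT *Pcbp1*–/– and 0.758 in PyMT *Pcbp1*+/+ tumors, and *Csn2* with *Lalba* 0.740 and -0.358. The pairs did not share 1 order of tumors. PyMT *Pcbp1*–/– replicate 5 was the lowest of 11 tumors for *Csn3* and *Lalba* but among the 3 highest for *Wap* and *Xdh*. PyMT *Pcbp1*+/+ replicate 2 was low for all 4 genes and at the same time the highest for *Csn2*.

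**Figure D3:**
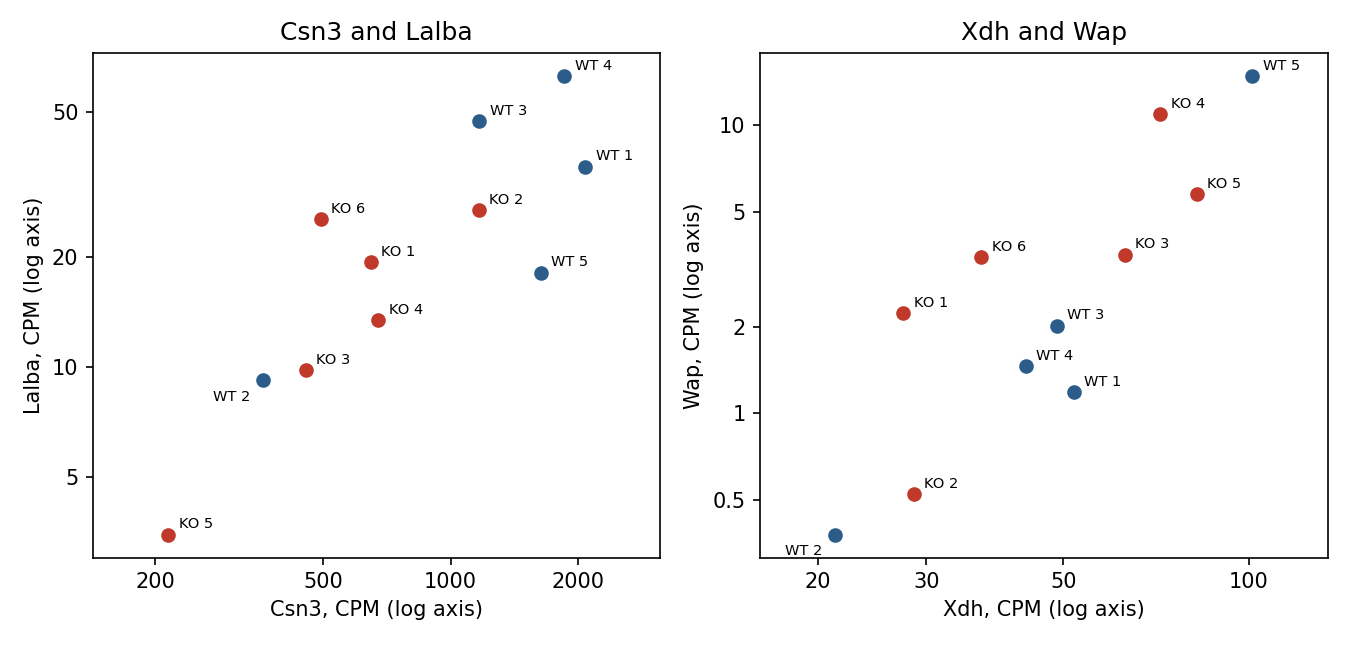
CPM of *Lalba* against *Csn3* (left) and of *Wap* against *Xdh* (right), both on log axes, with each point a tumor, red for PyMT *Pcbp1*–/– (KO and replicate number) and blue for PyMT *Pcbp1*+/+ (WT and replicate number). Each pair rose together over the 11 tumors (r = 0.844 and r = 0.861 on log2 CPM).

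The genes whose profile was most like the mean profile of the 7 tested milk genes were ranked by Pearson correlation over 11 tumors. They are given as a description with no test. They were picked as the highest among all genes that passed the filter, so r can be high by selection alone, with or without 2 tumors. *Gca* (grancalcin, a calcium-binding protein) had r = 0.860 and rho = 0.845, *Wdr37* r = 0.859 and rho = 0.855, *Rp9* r = 0.855 and rho = 0.800, *Adig* (adipogenin) r = 0.851 and rho = 0.855, and *Sidt2* (a lysosomal membrane protein) r = 0.829 and rho = 0.855. The other 5 of the 10, none with a descriptive name, were RP23-355K21.2, RP23-127B8.5 and the antisense genes RP23-12I4.2, RP23-104G24.2 and ENSMUSG00000097253.2, with r between 0.826 and 0.889 and rho between 0.755 and 0.918. Without PyMT *Pcbp1*+/+ replicates 3 and 5, the 2 tumors farthest from the median of the mean profile, r was 0.797 for *Gca*, 0.811 for *Wdr37*, 0.839 for *Rp9*, 0.779 for *Adig* and 0.728 for *Sidt2*, and between 0.704 and 0.835 for the other 5. The milk genes themselves followed their mean less closely, with r from 0.0983 for *Csn2* to 0.592 for *Xdh*, so this profile stands for no single milk gene.

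Markers of other cells were set beside the milk genes in 42 correlations (7 milk genes by 6 marker lists, each list as log2 of its summed CPM plus 1, n = 11 tumors). *Btn1a1* had r = 0.739 and rho = 0.736 with the 9 basal and myoepithelial markers, and r = 0.637 without the 2 tumors farthest from the median of the markers. *Lalba* had r = 0.772 and rho = 0.718 with the 9 adipocyte markers (r = 0.728 without 2 tumors), and r = 0.694 and rho = 0.536 with the 5 markers of high endothelium and lymph node (r = 0.581 without 2 tumors). *Csn3* had r = 0.523 and rho = 0.5 with the adipocyte markers (r = 0.486 without 2 tumors), and *Csn1s1* r = -0.499 and rho = -0.591 with them (r = -0.664 without 2 tumors). *Csn2* had r = -0.373 and rho = -0.515 with the skeletal muscle markers (r = -0.602 without 2 tumors), and r = -0.0190 and rho = 0.0456 with the salivary and lacrimal markers (r = -0.670 without 2 tumors). Leaving out 2 tumors also moved *Wap* with the basal markers from r = -0.132 to r = 0.629 and *Btn1a1* with the muscle markers from r = 0.0261 to r = 0.637. *Wap* had r = 0.795 and rho = 0.845 with the 7 skeletal muscle markers (r = 0.879 without 2 tumors), and *Xdh* r = 0.548 and rho = 0.618 with them (r = 0.780 without 2 tumors). Each milk gene's r with the 12 luminal markers lay between -0.459 for *Csn2* and 0.504 for *Xdh*, and without 2 tumors these were -0.743 and 0.477. The basal list summed to 490 ± 174 CPM (SD over n = 6) in PyMT *Pcbp1*–/– and 538 ± 415 CPM (SD over n = 5) in PyMT *Pcbp1*+/+ tumors, and its most abundant gene was *Mylk*. Its sum was 1246 CPM in PyMT *Pcbp1*+/+ replicate 1 and at most 455 CPM in the others of that genotype, below the PyMT *Pcbp1*–/– mean. The adipocyte list summed to 40.2 ± 21.7 CPM (SD over n = 6) and 63.1 ± 48.6 CPM (SD over n = 5), with *Plin4* the most abundant. This sum was 147 CPM in PyMT *Pcbp1*+/+ replicate 3. In the other PyMT *Pcbp1*+/+ tumors it was between 22.5 and 55.8 CPM, within the range of the PyMT *Pcbp1*–/– tumors. The muscle list summed to 12.2 ± 9.14 CPM (SD over n = 6) and 11.0 ± 12.7 CPM (SD over n = 5). Its sum was 33.5 CPM in PyMT *Pcbp1*+/+ replicate 5 and between 2.80 and 7.25 CPM in the others of that genotype. *Mb* was its most abundant gene over the 11 tumors together, though not in PyMT *Pcbp1*–/– tumors alone. The salivary and lacrimal list, with 7 of 9 genes matched by name and *Prol1* the most abundant, summed to 7.87 ± 5.20 CPM (SD over n = 6) and 4.85 ± 5.17 CPM (SD over n = 5), and *Dcpp2* was at 0 in all PyMT *Pcbp1*+/+ tumors. In PyMT *Pcbp1*+/+ replicate 3 the salivary and lacrimal sum was 13.8 CPM, against at most 4.24 CPM in the others of that genotype. Of these lists, 9 basal, 8 adipocyte, 2 salivary and lacrimal, 2 muscle and 0 lymph node genes were tested. In edgeR and DESeq2, 0 of the genes tested passed an adjusted p under 0.05 between genotypes, 1 basal gene passed an unadjusted p under 0.05 in edgeR, and limma-voom with sample quality weights called 1 adipocyte gene lower. The shares over all genes were 10.5% lower at the unadjusted p in edgeR and 6.19% lower in limma-voom. All 8 adipocyte markers tested had estimates below 0, where 9619 of all 19232 genes did, and their median log2 fold change was -0.72. This sign and median lean on PyMT *Pcbp1*+/+ replicate 3, the highest of all tumors for *Adipoq*, *Plin1*, *Plin4*, *Cidec*, *Cfd* and *Lipe*. Estimates without that tumor are not given for these markers. The medians were -0.10 for the luminal and -0.04 for the basal markers. The part of these cells in the milk gene levels was not tested.

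All 5 caseins lie on chromosome 5 within 266458 bases. The window from 250 kb before the first to 250 kb after the last (87416208 to 88182665 of GRCm38) held 13 genes of the table, of which *Csn1s1*, *Csn2* and *Csn3* passed the filter on low counts. The other 8 genes of the window besides the caseins did not pass it and had group means of at most 1.25 CPM. *Csn3*, at the far end from *Csn1s1*, was thus expressed at a high level beside neighbours that were nearly silent, and the 3 tested caseins had estimates of both signs. No gene of the table overlapped any of the 10 milk genes on either strand.

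The RefSeq promoter table (GRCm38.p6) held entries for 6 of the 10 milk genes, *Csn1s1*, *Csn1s2a*, *Csn2*, *Wap*, *Lalba* and *Glycam1*, each from 250 bases before to 50 bases after the gene's start in that table. This start was that of the deposited gene for *Csn1s1* and *Glycam1* and differed from it by 12 bases for *Wap*, 38 for *Lalba*, 117 for *Csn1s2a* and 205 for *Csn2*. The motif TTCNNNGAA, the core letters that STAT5 is known to bind and the same on both strands, was found in 4 of them, *Csn1s1*, *Csn1s2a*, *Csn2* and *Glycam1*, and in 8.3% of all 32851 promoters of the table. The motif TATAAA (either strand) was in 0 of the 6 and in 13.6% of all promoters, and TGTTCT (either strand), a glucocorticoid receptor half-site, was in *Csn1s2a* and in 19% of all promoters. A match describes the letters and does not show a bound site. The promoters of 2 caseins that hold the motif yet differed in level, *Csn1s1* (chr5:87665958-87666257, plus strand) and *Csn2* (chr5:87699376-87699675, minus strand), and of the whey proteins *Lalba* (chr15:98482634-98482933, minus strand) and *Wap* (chr11:6638600-6638899, minus strand), which varied among tumors in different orders, are shown 5′ to 3′ with TTCNNNGAA in capitals.
Csn1s1: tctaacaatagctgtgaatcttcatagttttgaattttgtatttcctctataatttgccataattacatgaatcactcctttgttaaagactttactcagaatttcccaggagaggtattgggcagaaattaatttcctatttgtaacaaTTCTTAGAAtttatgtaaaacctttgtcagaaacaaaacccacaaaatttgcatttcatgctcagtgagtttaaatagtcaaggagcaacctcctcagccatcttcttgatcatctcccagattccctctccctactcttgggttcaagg
Csn2: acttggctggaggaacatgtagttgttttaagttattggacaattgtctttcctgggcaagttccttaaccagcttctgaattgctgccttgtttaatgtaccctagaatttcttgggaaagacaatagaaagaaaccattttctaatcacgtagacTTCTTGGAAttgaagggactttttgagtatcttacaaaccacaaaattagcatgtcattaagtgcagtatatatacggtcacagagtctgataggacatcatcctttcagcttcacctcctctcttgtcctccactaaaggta
Lalba: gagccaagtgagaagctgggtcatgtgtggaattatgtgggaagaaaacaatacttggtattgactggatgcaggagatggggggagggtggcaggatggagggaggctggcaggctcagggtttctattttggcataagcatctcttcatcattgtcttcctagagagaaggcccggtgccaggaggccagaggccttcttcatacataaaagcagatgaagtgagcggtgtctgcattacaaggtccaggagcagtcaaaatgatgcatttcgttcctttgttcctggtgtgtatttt
Wap: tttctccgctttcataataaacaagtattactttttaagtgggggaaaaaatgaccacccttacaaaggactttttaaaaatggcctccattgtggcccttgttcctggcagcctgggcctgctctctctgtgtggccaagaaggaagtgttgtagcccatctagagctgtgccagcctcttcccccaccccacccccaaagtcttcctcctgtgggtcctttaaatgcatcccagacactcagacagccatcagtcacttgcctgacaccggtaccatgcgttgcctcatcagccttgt
The motif began 100 bases before the table's start in *Csn1s1* and 93 bases before it in *Csn2*, whose start in the table lay 205 bases inside the deposited gene, so that the *Csn2* motif was within that gene, and no TTCNNNGAA stood in the 300 bases of *Lalba* or *Wap*.

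Genes that act upstream of milk synthesis were expressed in the tumors. The calls in the lists below stand beside 1.66% lower and 0.608% higher over all genes in edgeR, 3.8% and 2.53% in DESeq2, and 6.19% and 5.03% in limma-voom with sample quality weights, and counts at an unadjusted p under 0.05 in edgeR beside 10.5% and 8.19%. Of 17 regulators of lactogenic signalling and alveolar differentiation, 16 were tested and 0 passed at an adjusted p under 0.05 in edgeR in either direction, with 1 lower and 1 higher at an unadjusted p under 0.05 and a median log2 fold change of -0.02. DESeq2 called 0 of them, and limma-voom with sample quality weights called 1 higher. The prolactin receptor *Prlr* was at 312 ± 116 CPM (SD over n = 6) in PyMT *Pcbp1*–/– and 317 ± 170 CPM (SD over n = 5) in PyMT *Pcbp1*+/+ tumors. *Nfib*, a transcription factor that binds milk gene promoters, was at 1600 ± 171 CPM (SD over n = 6) and 1836 ± 244 CPM (SD over n = 5), and *Cebpb*, which alveolar development requires, at 299 ± 69.8 CPM (SD over n = 6) and 301 ± 44.8 CPM (SD over n = 5). The means of each of these genes differed between genotypes by less than the larger SD.

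Of 15 other milk and whey proteins, 13 were tested, 1 was lower and 0 were higher at an adjusted p under 0.05 in edgeR, and the median log2 fold change was -0.05. At an unadjusted p under 0.05 in edgeR 3 were lower and 2 higher, while DESeq2 called 3 lower and 1 higher and limma-voom 2 lower and 1 higher. The lower gene in edgeR was *Trf*, which encodes transferrin, an iron carrier that is also an abundant whey protein of mouse milk. *Trf* ranged from 306 to 534 CPM in PyMT *Pcbp1*–/– tumors, with a median of 407 CPM, and was at 669, 675, 611, 717 and 831 CPM in PyMT *Pcbp1*+/+ replicates 1 to 5. Every PyMT *Pcbp1*–/– tumor lay below every PyMT *Pcbp1*+/+ tumor. edgeR gave *Trf* a log2 fold change of -0.77 (SE 0.16, adjusted p = 0.0322), and the adjusted p ranged from 0.0280 to 0.0782 when single tumors were left out and reached at most 0.0498 under the other alternatives, so 7 of the 11 tumors ended the call when left out. The estimate for *Trf* stayed between -0.87 and -0.67 throughout. *Mfge8* (lactadherin) was at 558 ± 271 CPM (SD over n = 6) and 584 ± 287 CPM (SD over n = 5), and *Lcn2* (lipocalin) at 943 ± 250 CPM (SD over n = 6) and 1008 ± 267 CPM (SD over n = 5).

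Of 20 genes of milk fat synthesis and the globule, 19 were matched by name and 17 tested, 0 were lower and 1 was higher at an adjusted p under 0.05 in edgeR, and the median log2 fold change was 0.18. With an unadjusted p under 0.05 in edgeR 0 were lower and 2 higher, DESeq2 called 1 higher, and limma-voom called 2 higher. The higher gene in edgeR was *Rab18*, a small GTPase of lipid droplets, at 81.6 to 96.7 CPM in PyMT *Pcbp1*–/– tumors with a median of 90.0 CPM, and at 88.3, 63.8, 62.3, 68.9 and 67.5 CPM in PyMT *Pcbp1*+/+ replicates 1 to 5. PyMT *Pcbp1*+/+ replicate 1 lay within the range of the PyMT *Pcbp1*–/– tumors and the other 4 below it. edgeR gave *Rab18* a log2 fold change of 0.35 (SE 0.08, adjusted p = 0.0493), and the adjusted p ranged from 0.00216 to 0.121 over the alternatives, with the call lost in 16 of the 22. The estimate itself stayed between 0.32 and 0.41 in all of them. The most abundant genes of this list over the 11 tumors together were *Scd2*, a fatty acid desaturase, at 808 ± 99.8 CPM (SD over n = 6) and 695 ± 104 CPM (SD over n = 5), *Srebf1*, a transcription factor of lipid synthesis, at 313 ± 84.5 CPM (SD over n = 6) and 379 ± 41.6 CPM (SD over n = 5), and *Fasn*, fatty acid synthase, at 219 ± 31.4 CPM (SD over n = 6) and 191 ± 26.9 CPM (SD over n = 5).

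Of 14 genes of lactose synthesis and milk transport, 13 were tested, 1 was lower and 0 were higher at an adjusted p under 0.05 in edgeR, and the median log2 fold change was -0.07. In edgeR 3 were lower and 1 was higher at an unadjusted p under 0.05, and DESeq2 and limma-voom each called 1 lower. The lower gene was *Slc2a1*, which encodes the glucose transporter GLUT1, at 18.3 to 27.0 CPM in PyMT *Pcbp1*–/– tumors with a median of 23.0 CPM, and at 42.4, 38.6, 33.5, 31.8 and 23.4 CPM in PyMT *Pcbp1*+/+ replicates 1 to 5. PyMT *Pcbp1*+/+ replicate 5 lay within the range of the PyMT *Pcbp1*–/– tumors and the other 4 above it. edgeR gave *Slc2a1* a log2 fold change of -0.59 (SE 0.14, adjusted p = 0.0446), and the adjusted p ranged from 0.00401 to 0.101 over the alternatives, with the call lost in 14 of the 22. Its estimate stayed between -0.68 and -0.53 in all of them. *B4galt1*, the catalytic partner of alpha-lactalbumin in lactose synthase, was at 200 ± 35.9 CPM (SD over n = 6) in PyMT *Pcbp1*–/– and 167 ± 18.2 CPM (SD over n = 5) in PyMT *Pcbp1*+/+ tumors (log2 fold change 0.25, adjusted p = 0.268 from edgeR). The ion cotransporter *Slc12a2* was at 399 ± 137 CPM (SD over n = 6) and 379 ± 161 CPM (SD over n = 5), and the amino acid transporter chain *Slc3a2* at 80.5 ± 10.4 CPM (SD over n = 6) and 104 ± 28.3 CPM (SD over n = 5).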

How the data were processed

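RNA from 11 mammary tumors was sequenced by the authors from poly(A)-enriched, stranded libraries, and per the labels the processing used FastQC, Bowtie2 and Partek with GRCm38, versions not given. The authors deposited estimated counts per gene, of which 18.1% to 19.8% in a tumor were not whole numbers, and CPM values, each count divided by its tumor's sum. Whether counting used the strand is not given in the sources used here.

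After rounding, the estimated counts were analysed with edgeR 4.0.16 (R 4.3.3) using TMM factors, filterByExpr and the quasi-likelihood test with genotype as the only term. Standard errors and 95% intervals were derived from the F statistic and are approximate. Fold changes are log2, and correlations used log2 CPM with a prior count of 2. DESeq2 1.42.0 and limma 3.58.1, other scalings, filters on low counts and pseudocounts of 1 and 0.1, the replicate number as a block, and each tumor left out were the alternatives. The tests were tested on simulated data, where false calls lay above the threshold in DESeq2 alone. This was a single run, in which a gene's spread followed from its level alone and no tumor stood apart. It therefore does not give the rate of false calls in these tumors. Transcript lengths came from GENCODE (GRCm39, lengths only), promoters from RefSeq.

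The genes named were the milk genes, *Pcbp1*, from each pathway list those with an adjusted p under 0.05 and the 3 most abundant, tested genes within 250 kb of the caseins, the 10 genes most correlated with the mean z-score of the milk genes, and per cell type list the most abundant gene and those at 0. The members and lists were chosen with earlier results of these data known. The sources used here do not say whether each tumor came from a separate animal, so p-values measure the spread between these tumors.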

Additional observations from a re-analysis of the deposited data

Results flagged for a closer look

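A value was listed here when the gap between the highest or lowest tumor of a genotype and its nearest neighbour took up an unusually large part of the genotype's range (above the 95% critical value of Dixon's test). Of 64 groups of values looked at, 7 were listed. Chance lists about 1 in 20 groups when values are independent and normally distributed. That was not shown for these CPM values, and some listed values share a tumor, so 7 is not read as an excess. All 7 were the highest of the PyMT *Pcbp1*+/+ tumors.

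*Wap* was at 14.8 CPM in PyMT *Pcbp1*+/+ replicate 5 and at most 2.02 CPM in the other tumors of that genotype. In the same tumor the 7 skeletal muscle markers summed to 33.5 CPM, against at most 7.25 CPM in the other PyMT *Pcbp1*+/+ tumors. *Glycam1* was at 1.14 CPM in PyMT *Pcbp1*+/+ replicate 2 and at most 0.175 CPM in the others of its genotype, a difference that rests on 12 rounded counts. *Rab18* was at 88.3 CPM in PyMT *Pcbp1*+/+ replicate 1, against at most 68.9 CPM in the other PyMT *Pcbp1*+/+ tumors. The basal and myoepithelial markers summed to 1246 CPM in that same tumor, against at most 455 CPM in the others. In PyMT *Pcbp1*+/+ replicate 3 the adipocyte markers summed to 147 CPM, against at most 55.8 CPM, and the salivary and lacrimal markers to 13.8 CPM, against at most 4.24 CPM. The part of these cells in the milk gene values was not tested.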

How the results depend on the processing

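Under 9 alternatives with all 11 tumors and 1 with 10, DESeq2, 3 other scalings, 2 other filters, protein-coding genes alone, limma on log2 CPM with a pseudocount of 1 or 0.1 and the replicate block, 0 milk genes were called in either direction. Limma-voom with sample quality weights called 2 lower, *Csn3* and *Lalba*. Leaving out single tumors gave from 0 to 1 lower, the 1 being *Csn3* without PyMT *Pcbp1*+/+ replicate 2. *Csn3*, *Lalba* and *Csn2* kept a negative and *Csn1s1* and *Btn1a1* a positive estimate in each alternative that tested them. The median of the milk genes lay between -0.40 and 0.21.

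Over all genes, DESeq2 called 730 lower and 486 higher and limma-voom 1190 and 968. With the replicate number as a block (replicate block, 10 tumors) the counts were 118 and 42. Same-numbered tumors had correlations of 0.134, 0.0867, -0.079, -0.144 and 0.293 in their deviations from the genotype means, and numbers 1 and 5 alone matched best. This gave no clear sign that the numbers pair the tumors, but it cannot exclude a pairing. Leaving out single tumors gave 144 to 389 lower and 41 to 187 higher. The cause of these shifts was not tested.

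The sign turned for genes with estimates near 0. *Prlr* had 0.00046 in DESeq2, 0.0083 without a filter and 0.11 in limma with either pseudocount. *Xdh* had 0.18 in limma-voom and 0.051 with the block, *Mfge8* 0.26 and 0.0080, and *Cebpb* 0.050 with the block. With single tumors left out, estimates ran from -0.40 to 1.81 for *Wap*, -0.26 to 0.35 for *Xdh*, -0.22 to 0.20 for *Prlr*, -0.11 to 0.059 for *Cebpb*, -0.29 to 0.20 for *Mfge8*, -0.19 to 0.010 for *Lcn2* and -0.14 to 0.24 for *Slc12a2*.

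The level of the milk genes without *Csn3* was 0.0190% and 0.0187% of counts. The median r of the most alike genes was 0.789 without 2 tumors and 0.901 in PyMT *Pcbp1*+/+ tumors alone. Depth limits *Csn2*, *Csn1s2a*, *Csn1s2b* and *Glycam1*, which had at most 44 counts in a tumor.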
